A study of Homo sapiens with 2 samples.

Results

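The cells described here are the 1273 vehicle cells that the deposited cell table places in S phase, of 2822 vehicle cells and 5985 cells in the whole series. They come from a culture of MDA-MB-453, a long-established line of human breast cancer cells that the labels call triple-negative and wild type, which grew in DMEM with fetal bovine serum and received water as vehicle for 24 hours. Their reference is the 1032 vehicle cells placed in G1, with the 517 vehicle cells placed in G2M (G2 and mitosis together) as the neighbouring phase. A sister culture received 10 ng/ml of IL1β and TNFα over 24 hours, and its 324 S and 2799 G1 cells are used only to see which ratios recur. Each culture was 1 library, so cells are the only repeats, no test between phases was made, and every interval given is an exact 95% interval for counting error alone.

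The phase of a cell was called by the authors from its RNA, through a score over genes of DNA replication and a score over genes of G2 and mitosis. A cell was G1 when both scores were below 0, S when the S score was the higher, and G2M otherwise, and this rule returned the deposited phase in 5985 of 5985 cells. In the S cells the S score ran between 0.0001 and 2.73 with a median of 0.737. No DNA content was measured, so the name S phase stands for a pattern of transcripts. The genes that the scores read are described as what chose the cells, and all other genes are counted apart from them, although genes that vary with the scored ones are also touched by the choice.

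S cells made up 45.1% of the vehicle library (43.3 to 47.0), G1 cells 36.6% and G2M cells 18.3%. In the cytokine library 10.2% of cells were in S. S cells held 27339863 unique molecular identifiers in all (UMIs, counted molecules), and the median S cell had 21047 UMIs from 4232 genes. G1 cells held 20051561 UMIs in all, and the median G1 cell had 18486 UMIs from 3759 genes. Since S cells held more UMIs each, levels are given as counts per 1000000 UMIs of the phase (CPM), and shares of cells are given after each cell was thinned to 14000 UMIs. The median mitochondrial share was 6.18% in S and 6.40% in G1 cells. Of the barcodes, 8 occurred in both libraries and 3 of those were vehicle S cells. Cells with more than 4750 genes, close to the upper limit of 5000 at which the authors removed cells, were 115 of the S cells (9.03%) and 42 of the G1 cells (4.07%), and what that limit removed was not analysed here.

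During S phase a cell copies its genome once. Origins are licensed in G1 by loading of the MCM helicase with ORC, CDC6 and CDT1, helicases are switched on by CDC45 and GINS, and the forks then need polymerases, the PCNA clamp, deoxynucleotides and new histones. Many of these genes are transcribed at the G1 to S passage by the E2F factors, which the retinoblastoma family holds back earlier in the cycle.

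RRM2, PCNA and MCM6 mark these cells, and all of them are read by the S score. RRM2, the small subunit of ribonucleotide reductase, was at 203 CPM in S and 19.4 CPM in G1 cells. PCNA, the sliding clamp of the polymerases, was at 193 CPM in S cells and 35.5 CPM in G1 cells. MCM6, a subunit of the replicative helicase, was at 70.0 CPM in S cells and 17.8 CPM in G1 cells. The label therefore fits the markers by construction. To read these genes without letting them choose the cells, the phase was called again from every other score gene and the remaining ones were read. This was done with each set of genes in turn, which placed 1345 cells in S and 938 in G1, then 871 and 1241. The genes read belong to the same lists as those that made the call, so they can vary together with them. RRM2 was then at 193 CPM in S and 19.4 CPM in G1 cells (log2 ratio 3.31, 3.16 to 3.47), PCNA had a log2 ratio of 2.23 and MCM6 of 1.63. With the deposited phases, 44 of 46 measured genes of the S score were at least 1.5-fold higher in S cells, with a median log2 ratio of 2.13. Read on the new calls together, the count was also 44 of 46, with a median log2 ratio of 1.86. The exceptions were MRPL36, which encodes a mitochondrial ribosomal protein (-0.04), and POLR1B, a subunit of RNA polymerase I (-0.11).

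Promoter sequence is shown for genes that carry the account, because E2F transcription factors bind short GC-rich 8-base motifs close to gene starts. Each line gives 120 bases that end just before the RefSeq start, 5′ to 3′ on the gene's own strand in build GRCh38.p14, and capitals mark any of the 8-base strings TTTCCCGC, TTTCGCGC, TTTGCCGC and TTTGGCGC on either strand. E2F1 (chr20:33686386-33686505, minus strand) and E2F2 (chr1:23531234-23531353, minus) encode activating E2F factors, and CDT1 (chr16:88803669-88803788, plus) the licensing factor. MCM6 (chr2:135876444-135876563, minus) and PCNA (chr20:5126623-5126742, minus) are named above. MCM10 (chr10:13161438-13161557, plus) had the highest ratio of the licensing and firing genes outside the score, and is shown as one without a match. MCM6 has 2 matches that overlap, and E2F1 has 2 that do not.
E2F1: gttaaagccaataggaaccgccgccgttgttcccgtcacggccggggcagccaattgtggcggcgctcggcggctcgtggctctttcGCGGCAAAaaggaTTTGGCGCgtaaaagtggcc
E2F2: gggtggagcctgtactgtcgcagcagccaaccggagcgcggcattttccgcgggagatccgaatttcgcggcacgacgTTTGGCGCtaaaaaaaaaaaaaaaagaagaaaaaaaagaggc
CDT1: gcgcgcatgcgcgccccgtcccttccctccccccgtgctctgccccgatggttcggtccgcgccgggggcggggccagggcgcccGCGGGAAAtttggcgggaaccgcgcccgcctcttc
MCM6: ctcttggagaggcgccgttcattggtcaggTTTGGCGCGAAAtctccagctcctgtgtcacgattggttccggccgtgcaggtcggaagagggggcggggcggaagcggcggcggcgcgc
PCNA: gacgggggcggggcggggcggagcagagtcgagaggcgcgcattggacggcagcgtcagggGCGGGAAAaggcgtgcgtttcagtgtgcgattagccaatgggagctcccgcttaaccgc
MCM10: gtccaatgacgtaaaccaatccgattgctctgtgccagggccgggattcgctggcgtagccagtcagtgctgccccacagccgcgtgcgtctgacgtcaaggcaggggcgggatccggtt

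Over the 250 bases before the start, at least 1 of the 4 strings was found in 2.79% of all 27305 promoters and in 4.87% of the promoters of measured genes outside the score. The share was 10.0% among the genes higher in S cells (56 of the 558 that matched a promoter), 1.92% among the genes lower in S cells (2 of 104) and 37.1% among the S score genes (13 of 35). The string TTTGAA, the core of the cell cycle homology region found before many mitotic genes, was in 12.4% of the promoters of genes higher in S cells, 7.74% of those of measured genes outside the score and 13.6% of all promoters. Among the genes higher in S than in G1 it was in 6.99% of those that were also higher in S than in G2M cells (19 of 272) and in 27.7% of those lower in S than in G2M cells (33 of 119). A match describes letters in a window and not a bound site. HIST1H4C had no entry among the promoters.

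Of 8999 measured genes outside the score (CPM of at least 5 in S or in G1 cells), 677 were at least 1.5-fold higher in S than in G1 cells with the interval on the same side (7.52%), and 151 were at least 1.5-fold lower (1.68%). At 2-fold these counts were 269 (2.99%) and 33 (0.367%). The median log2 ratio over all measured genes outside the score was 0.07. Of the 95 measured score genes, 81 were higher (85.3%) and 0 lower, with no test made since they chose the cells. The plot of levels by phase shows examples from the groups described next.

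**Figure D1:**
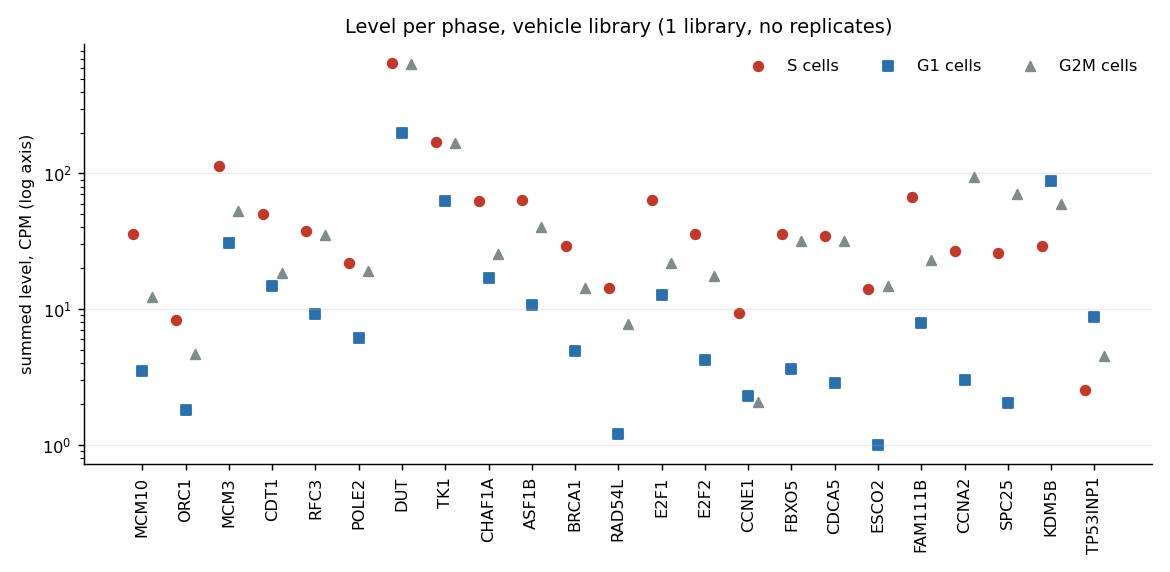
Level of genes outside the score in S (circles), G1 (squares) and G2M cells (triangles) of the vehicle library, as summed CPM on a log axis. MCM10 stands at 35.7 CPM in S and 3.49 CPM in G1 cells, while KDM5B stands at 29.0 CPM in S and 87.8 CPM in G1 cells.

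The genes of origin licensing and firing stood furthest above G1 of the unscored lists, with a median log2 ratio of 1.63 over 20 measured members, of which 17 were higher and 0 lower. MCM10 (chromosome 10, 13161558 to 13211110, plus strand), which helps to switch on the loaded helicase, was at 35.7 CPM in S cells (33.5 to 37.97) and 3.49 CPM in G1 cells, a 10.2-fold difference (log2 ratio 3.35, 3.002 to 3.724). After thinning, 39.1% of S cells (36.4 to 41.9) and 4.67% of G1 cells held a MCM10 UMI, against 52.3% and 5.72% before it, so the higher level went with many more cells that showed the transcript. TICRR, which acts in origin firing, was at 6.14 CPM in S and 0.898 CPM in G1 cells, and GINS1, a part of the active helicase, at 35.5 CPM in S and 8.58 CPM in G1 cells. CDT1 was 3.39-fold higher (50.2 CPM in S and 14.8 CPM in G1 cells) and MCM3 3.70-fold higher (113 and 30.5 CPM).

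The origin recognition complex was not of one kind. ORC1, the subunit whose amount varies over the cycle in human cells, was 4.65-fold higher (8.34 CPM in S and 1.80 CPM in G1 cells), and ORC6 was 3.76-fold higher (49.1 and 13.1 CPM). ORC2 was at 15.9 CPM in S and 14.2 CPM in G1 cells, ORC4 at 15.9 and 18.2 CPM, and ORC3 at 15.7 and 10.8 CPM, and none of these passed 1.5-fold.

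At the replication fork 21 of 28 measured members were higher and 0 lower, with a median log2 ratio of 1.09. DNA2, a nuclease and helicase that trims Okazaki fragments, was at 11.01 CPM in S and 2.44 CPM in G1 cells. The clamp loader subunit RFC3 was 4.13-fold higher (37.9 CPM in S and 9.18 CPM in G1 cells), RFC4 3.60-fold and RFC5 3.12-fold higher. ATAD5, which takes the clamp off DNA, was at 28.3 CPM in S and 6.73 CPM in G1 cells. Among the polymerases, POLE2 of polymerase epsilon was 3.54-fold, POLA2 of polymerase alpha 3.52-fold and POLD1, the catalytic subunit of polymerase delta, 3.11-fold higher. The 7 measured members that were not called included POLD4, at 99.0 CPM in S and 119 CPM in G1 cells, POLE4, at 189 and 153 CPM, and RPA3, at 228 and 205 CPM.

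For nucleotide supply 7 of 25 measured members were higher and 0 lower, with a median log2 ratio of 0.42. DUT, which clears dUTP, was 3.27-fold higher (650.4 CPM in S and 199 CPM in G1 cells). TK1, the cytosolic thymidine kinase, was 2.74-fold higher (172 and 62.7 CPM). The purine enzyme PAICS was at 83.0 CPM in S and 55.4 CPM in G1 cells, and CTPS1, which makes CTP, at 27.9 and 19.5 CPM, both short of 1.5-fold.

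Histone genes lay in both directions. Core histone genes used in replication give mRNAs that mostly end in a stem-loop without a poly(A) tail, and the kit primes on poly(A), so these levels count only the transcripts that were captured, and how much this shaped them was not tested. Many histone genes are also near-identical copies, so their counts are less certain than those of other genes. In the list of histones and their chaperones 13 of 28 measured members were higher and 1 was lower, with a median log2 ratio of 0.57. HIST1H4C (also named H4C3, chromosome 6, 26103933 to 26104337, plus strand), which encodes histone H4, was at 1523 CPM in S and 179 CPM in G1 cells, an 8.52-fold difference (log2 ratio 3.09, 3.04 to 3.14). The linker histone genes HIST1H1B, HIST1H1D and HIST1H1E were 6.33-fold, 3.17-fold and 2.84-fold higher, and HIST2H2AC, an H2A gene, 2.93-fold higher. The chaperone ASF1B, which hands H3 and H4 to the assembly machinery, was at 64.2 CPM in S and 10.7 CPM in G1 cells, and CHAF1A, a subunit of that machinery, at 62.8 and 17.1 CPM.

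HIST1H2AC (H2AC6, chromosome 6, 26124145 to 26139116, plus strand), an H2A gene in the same histone cluster, was the lowest of all measured genes outside the score. It was at 14.4 CPM in S and 77.6 CPM in G1 cells, 5.39-fold lower in S (log2 ratio -2.43, -2.59 to -2.27), and after thinning 16.2% of S and 58.8% of G1 cells held one of its UMIs. HIST2H2BE, an H2B gene on chromosome 1, was at 5.01 CPM in S and 25.4 CPM in G1 cells, 5.07-fold lower in S. HIST3H2A was at 54.97 CPM in S and 179 CPM in G1 cells, and HIST1H2BD at 29.3 and 93.2 CPM. Over the 20 measured genes whose names begin with HIST, a grouping made after their values were seen, 5 were higher and 10 lower in S cells, with a median log2 ratio of -0.61.

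**Figure D2:**
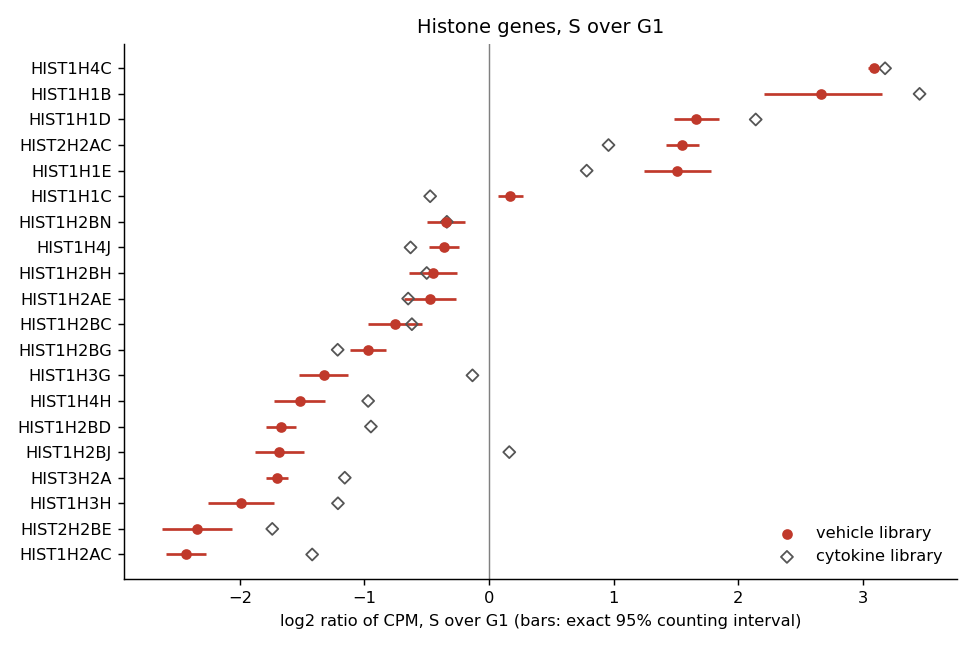
Log2 ratio of CPM, S over G1, for the 20 measured histone genes by name; filled circles are the vehicle library with exact 95% counting intervals, and open diamonds the cytokine library. HIST1H4C lies at 3.09 and HIST1H2AC at -2.43 in the vehicle library, and HIST1H2BJ and HIST1H1C have ratios of opposite sign in the 2 libraries.

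S cells differed widely among themselves in HIST1H4C. With every cell thinned to 14000 UMIs, the S cells held 1 HIST1H4C UMI at the 10th percentile, 7 at the median and 58 at the 90th, against 0, 2 and 5 in G1 cells. At least 10 UMIs were found in 541 of 1245 S cells (43.5%), in 7 of 963 G1 cells (0.727%) and in 214 of 489 G2M cells (43.8%). Close to that limit, 129 S cells held 7 to 13 UMIs. The S cells with at least 10 UMIs are a range of one gene and not a cell type.

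Genes of licensing differed less across that range than the histones given here. MCM3, a subunit of the replicative helicase, was 1.45-fold higher in the S cells with many HIST1H4C UMIs (135 CPM, against 93.3 CPM), MCM6, another of its subunits, 1.30-fold and CDT1, a licensing factor, 1.23-fold higher. MCM10 was at 37.7 CPM in the S cells with at least 10 HIST1H4C UMIs and 33.99 CPM in the 704 S cells with fewer, and CHAF1A at 65.2 and 60.3 CPM, both several times their G1 levels of 3.49 and 17.1 CPM. HIST1H1D was at 87.9 CPM in the S cells with many and 19.98 CPM in those with few HIST1H4C UMIs, next to 16.0 CPM in G1 cells. HIST2H2AC was at 150.1 CPM in the S cells with many and 29.2 CPM in those with few, next to 28.6 CPM in G1 cells. DUT and RRM2 were 2.18-fold and 3.52-fold higher in the cells with many. The cells with many HIST1H4C UMIs also had the higher S score (median 1.10, against 0.399) and held a median of 22407 UMIs, against 20494.

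**Figure D3:**
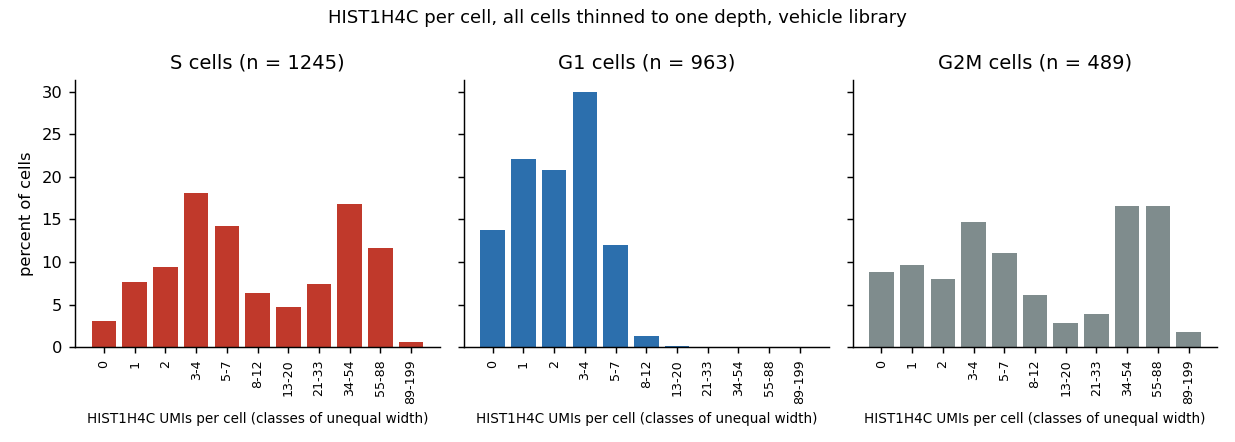
Percent of S, G1 and G2M cells of the vehicle library in each class of HIST1H4C UMIs per cell, after thinning every cell to 14000 UMIs; classes widen to the right. In these classes S and G2M cells have a low and a high peak, with 43.5% of S cells at 10 UMIs or more, and G1 cells a low peak only, with 0.727%.

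In DNA repair and the replication checkpoint 35 of 49 measured members were higher and 0 lower, with a median log2 ratio of 0.95. POLQ, the polymerase of end joining at microhomologies, was 14.9-fold higher at low levels (8.92 CPM in S and 0.598 CPM in G1 cells, log2 ratio 3.90, 3.07 to 4.87). RAD54L, which acts in homologous recombination, was 12.01-fold higher (14.4 and 1.20 CPM), and BRCA1, another recombination gene, was at 29.3 and 4.89 CPM. BRCA2 was 3.62-fold higher. Kinases that begin the damage signal were much closer to G1, with ATR at 14.5 CPM in S and 13.5 CPM in G1 cells and ATM at 17.3 and 13.7 CPM, and TP53BP1, a mediator of end joining, was at 17.6 CPM in both.

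Sister chromatid cohesion had 7 of 15 measured members higher and 0 lower, with a median log2 ratio of 0.53. The genes that establish and keep cohesion led. ESCO2, the acetyltransferase that locks cohesin on new DNA, was 14.1-fold higher (14.1 CPM in S and 0.997 CPM in G1 cells), and CDCA5 (sororin) 12.3-fold higher (34.9 and 2.84 CPM). SGO1, which guards cohesion at centromeres, was 4.99-fold higher. The ring subunits SMC3, SMC1A and RAD21 were 1.86-fold, 1.71-fold and 1.51-fold higher. Of the DNA methylation list only DNMT1, which copies methylation to the new strand, was called, at 191 CPM in S and 80.1 CPM in G1 cells (1 of 9 measured, 2.39-fold higher). Over all measured genes outside the score 7.52% were higher, so this single call is not read as a trait of the list. DNMT3A was at 12.7 CPM in S and 13.8 CPM in G1 cells.

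Of the E2F factors and their repressors, 11 of 18 measured members were higher and 0 lower, with a median log2 ratio of 0.71. E2F2 was 8.46-fold higher (35.8 CPM in S and 4.24 CPM in G1 cells) and E2F1 5.05-fold higher (64.0 and 12.7 CPM, log2 ratio 2.34, 2.15 to 2.53). E2F3, the other activator, was 2.13-fold higher. E2F7, a repressor, was 6.77-fold higher at low levels (5.74 and 0.848 CPM). Of the pocket proteins that hold E2F factors back, RBL1 was 3.56-fold higher (10.6 CPM in S and 2.99 CPM in G1 cells), RB1 was at 36.8 and 26.4 CPM, and RBL2 at 16.5 and 21.4 CPM. The repressor E2F4 was at 34.9 CPM in S and 29.7 CPM in G1 cells.

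Of the cyclins, kinases and their inhibitors, 11 of 22 measured members were higher and 1 was lower, with a median log2 ratio of 0.59. FBXO5, which restrains the anaphase-promoting complex, was 9.84-fold higher (35.8 CPM in S and 3.64 CPM in G1 cells). CCNE1, the cyclin of S phase entry, was at 9.40 CPM in S, 2.29 CPM in G1 and 2.05 CPM in G2M cells, the highest of the phases in S. CDC25A, the phosphatase that activates its kinase, was 4.33-fold higher than in G1 cells (16.4 and 3.79 CPM). CCND1, the most abundant cyclin listed, was at 646 CPM in S and 608 CPM in G1 cells, and CDKN1A at 17.2 and 17.3 CPM. CDKN1B, another inhibitor, was at 37.2 CPM in S and 31.0 CPM in G1 cells. The inhibitors CDKN2C and CDKN2D were higher in S than in G1 cells. CDKN2C was at 15.2 CPM in S, 5.39 CPM in G1 and 44.6 CPM in G2M cells, 2.82-fold higher in S than in G1, and CDKN2D at 21.2, 7.43 and 98.2 CPM, 2.85-fold higher.

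Mitotic genes outside the score were also higher in S than in G1 cells, 40 of 54 measured members against 3 lower, with a median log2 ratio of 1.06. Over all measured genes outside the score 7.52% were higher and 1.68% lower. By the phase rule 0 G1 cells had a G2M score above 0, while 357 of the 1273 S cells did. Genes that vary with that score are touched by the choice, so the count is partly built in. Against G2M cells the median log2 ratio of these mitotic genes was -1.03. SPC25, part of the kinetochore, was at 26.0 CPM in S, 2.04 CPM in G1 and 70.1 CPM in G2M cells, and the condensin subunit NCAPH at 18.5, 3.14 and 26.3 CPM. CCNA2, the cyclin of S phase and mitosis, was at 27.0 CPM in S, 2.99 CPM in G1 and 94.8 CPM in G2M cells. Some mitotic genes went the other way. PTTG1 (securin) was at 57.5 CPM in S, 173 CPM in G1 and 389.7 CPM in G2M cells, TROAP, a spindle protein, at 21.1, 43.2 and 105 CPM, and ARL6IP1 was 1.79-fold lower in S than in G1 cells. For these genes S cells held the lowest level of the 3 phases.

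Among genes lower in S cells, KDM5B (chromosome 1, 202724495 to 202808487, minus strand), which removes methyl groups from lysine 4 of histone H3, was at 29.0 CPM in S and 87.8 CPM in G1 cells, 3.02-fold lower in S (log2 ratio -1.60, -1.72 to -1.47). After thinning, 30.0% of S and 69.6% of G1 cells held a KDM5B UMI. Over all measured genes outside the score 1.68% were lower and 7.52% higher. In the list of quiescence genes and p53 targets 3 of 20 measured members were lower and 0 higher, with a median log2 ratio of -0.15. They were TP53INP1 (2.52 CPM in S and 8.73 CPM in G1 cells), CCNG2, an unusual cyclin of cells that leave the cycle (9.11 and 19.3 CPM), and BTG2, an antiproliferative factor (13.5 and 20.8 CPM). NMU, a secreted peptide, was 4.01-fold lower, with 12.4% of its S cell UMIs in its top 10 cells. S100P was 3.64-fold lower, but its top 10 cells held 82.2% of its UMIs in S and 89.2% in G1 cells, so that most of its UMIs came from few cells. Without the top 10 cells of each phase S100P was at 1.28 CPM in S and 2.84 CPM in G1 cells. Its log2 ratio was -1.41 with S cells outside cluster 2, -1.58 within cluster 1 and 0.31 within cluster 4.

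Of the luminal and secretory genes 2 of 29 measured members were lower and 0 higher, with a median log2 ratio of -0.17. Over all measured genes outside the score 1.68% were lower, and so few calls are not read as a trait of the list. XBP1, a regulator of secretory cells, was at 686 CPM in S and 1060.5 CPM in G1 cells, and was seen in nearly every cell. KRT19, a luminal keratin, was at 677 CPM in S and 962 CPM in G1 cells, short of 1.5-fold. PIP, a secreted apocrine protein, rested on 43 UMIs in S cells. Of the kynurenine pathway genes, which the study was about, 1 of 9 measured members was lower, a single call next to that share of 1.68%. That was TDO2, the enzyme that opens the pathway, at 6.73 CPM in S and 11.8 CPM in G1 cells, with 60.3% of its UMIs in S and 61.0% in G1 cells in the top 10 cells. The shares of cells with a TDO2 UMI after thinning were 3.45% in S (2.51 to 4.62) and 4.05% in G1, a difference within the counting error. Without the top 10 cells of each phase TDO2 was at 2.67 CPM in S and 4.59 CPM in G1 cells. Its log2 ratio was -1.08 with S cells outside cluster 2, -3.60 within cluster 4 and 0.73 within cluster 1.

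Housekeeping groups stayed close to G1 in their medians. Of all measured genes outside the score 7.52% were higher and 1.68% lower. The counts of higher genes in ribosome biogenesis, glycolysis and the immediate early list are near that share. Ribosomal protein genes had 0 of 80 members called, a median log2 ratio of -0.11, and took 28.4% of UMIs in S and 31.0% in G1 cells. None of 31 proteasome, 32 nuclear respiratory chain and 13 mitochondrially encoded genes was called, with medians of -0.04, 0.00 and -0.04. Ribosome biogenesis had 2 of 34 higher, RANBP1 (790.5 CPM in S and 433 CPM in G1 cells), a regulator of the GTPase Ran, and NOLC1 (78.4 and 48.4 CPM), a nucleolar protein, with a median of 0.22. Of 15 glycolysis genes only PFKP was called, 1.71-fold higher. DDIT4, a stress-induced brake on growth signalling, was the only one of 21 ER and stress genes called, 1.97-fold lower (38.04 CPM in S and 75.1 CPM in G1 cells). Of 18 immediate early genes JUND was higher (42.2 CPM in S and 27.4 CPM in G1 cells) and DUSP4, a phosphatase of MAP kinases, lower (37.8 and 61.8 CPM). Of 9 genes that keep origins from firing again, FBXO5 (above) and KMT5A, which methylates histone H4, were higher.

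**Figure D4:**
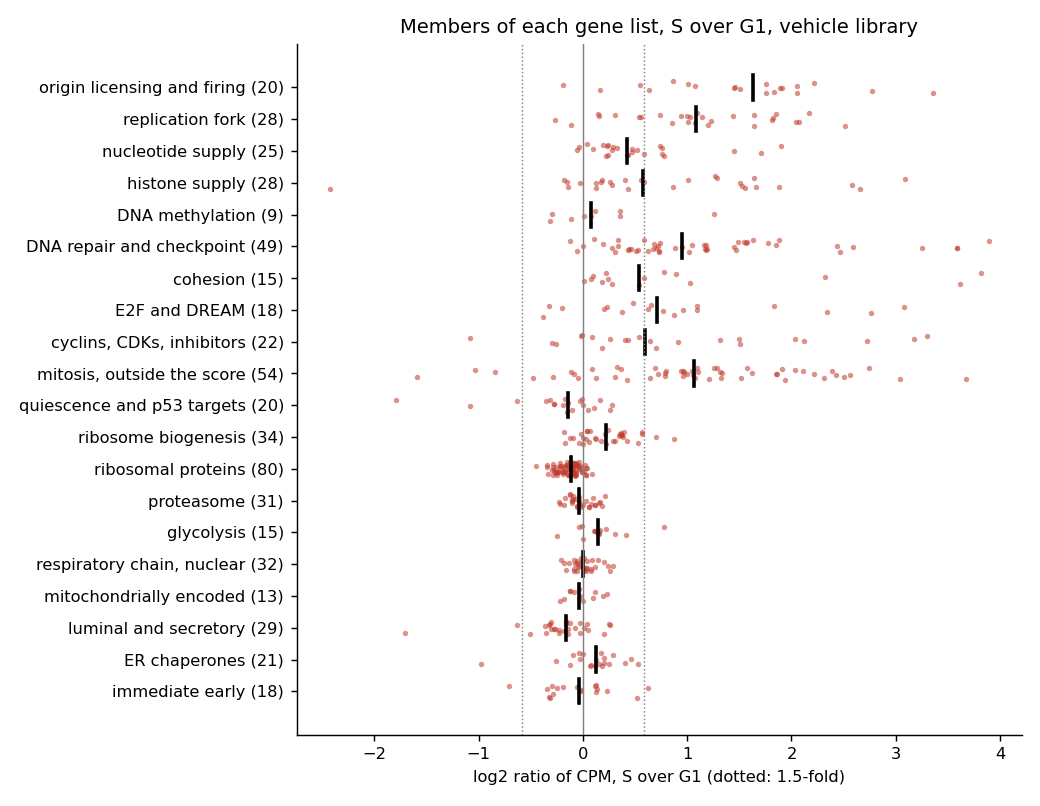
Log2 ratio of CPM, S over G1, for each measured member of 20 gene lists in the vehicle library; the black bar is the list median, dotted lines mark 1.5-fold, and the number of measured members is in parentheses. Licensing genes have a median of 1.63, ribosomal proteins of -0.11, and all measured genes outside the score of 0.07.

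Outside all lists, the highest ratio among genes at CPM 20 or more belonged to FAM111B, whose relative FAM111A is a protease at replication forks. It was at 67.1 CPM in S and 7.93 CPM in G1 cells (8.46-fold higher, log2 ratio 3.08, 2.85 to 3.32), and FAM111A was 3.55-fold higher. TRIP13, which disassembles checkpoint complexes, was 4.52-fold, TCF19 4.87-fold and RIBC2 5.34-fold higher. EZH2, the methyltransferase of lysine 27 of histone H3, was 3.25-fold higher (41.8 CPM in S and 12.9 CPM in G1 cells). MXD3, a partner of MAX, was at 27.5 CPM in S, 6.43 CPM in G1 and 80.5 CPM in G2M cells. The centrosome genes TEDC2 and CEP152 were 3.37-fold and 3.15-fold higher.

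Set against G2M cells, S cells had 490 of 9109 measured genes outside the score at least 1.5-fold higher (5.38%) and 493 lower (5.41%). Of the 677 genes that were higher in S than in G1 cells, 329 were also higher in S than in G2M cells, by any margin with the interval above 0, 139 were lower and 209 had an interval that held 0. FAM111B (2.92-fold), MCM10 (2.92-fold), E2F1 (64.0 CPM in S and 21.7 CPM in G2M cells) and CDT1 (50.2 and 18.6 CPM) were among the first. DUT was at 650.4 CPM in S and 645 CPM in G2M cells, and HIST1H4C was lower in S cells (1523 and 1793 CPM). Of the 151 genes that were lower in S than in G1 cells, 89 were also lower in S than in G2M cells and 13 were higher. Both sets were picked by their S cell counts, which also enter the ratio to G2M cells, so these splits are partly built in. Shares by the same any-margin rule were not computed over all measured genes.

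To see how levels vary within S, the S cells were split by their G2M score into 3 groups of 425, 424 and 424 cells, called low, middle and high. The score that makes the split is itself read from mitotic genes, so the split is a description. The low, middle and high groups also differed in S score, with medians of 0.269, 0.756 and 1.10. Differences between the groups therefore cannot be told apart from differences in the strength of the S call. HIST1H4C was at 179 CPM in G1 cells, then at 288, 868 and 3275 CPM in the low, middle and high S groups, and at 1793 CPM in G2M cells. DUT was at 199, 349, 624, 960.1 and 645 CPM over the same 5 groups, and SPC25 at 2.04, 5.22, 21.4, 49.9 and 70.1 CPM. HIST1H4C and DUT were less than 2-fold above G1 in the low S group.

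Licensing and entry genes were above G1 in the low S group where shown here, but their levels over the S groups differed. The log2 ratio of the high over the low S group was 0.26 for MCM10, 0.31 for CCNE1 and 0.29 for ORC6. It was larger for E2F2 (1.23), GINS1 (0.86), MCM3 (0.76) and E2F1 (0.69). E2F1 was at 12.7 CPM in G1 cells, 46.8 CPM in the low and 75.6 CPM in the high S group. MCM10 was at 3.49 CPM in G1, 29.1, 43.5 and 35.0 CPM in the 3 S groups and 12.2 CPM in G2M cells. CCNE1 was at 2.29, 7.18, 12.4, 8.91 and 2.05 CPM over the 5 groups, and ORC6 at 13.1, 43.6, 50.5, 53.1 and 30.9 CPM. The genes lower in S cells did not share one pattern over the groups. HIST1H2AC was at 77.6, 25.4, 10.7, 7.15 and 31.4 CPM and KDM5B at 87.8, 46.2, 26.1, 15.2 and 59.1 CPM, both lowest in the high S group. CCNG2 was instead at 19.3, 7.29, 7.18, 12.5 and 23.2 CPM, and HIST3H2A at 179, 56.3, 40.7, 66.2 and 109 CPM. Of the 677 genes higher in S than in G1 cells, 283 were past 1.5-fold higher in the high than in the low S group, 3 past 1.5-fold lower and 391 neither. These genes were picked as high in S, and the high S group also had the higher S score, so that excess is partly built in. The same count over all measured genes was not made.

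**Figure D5:**
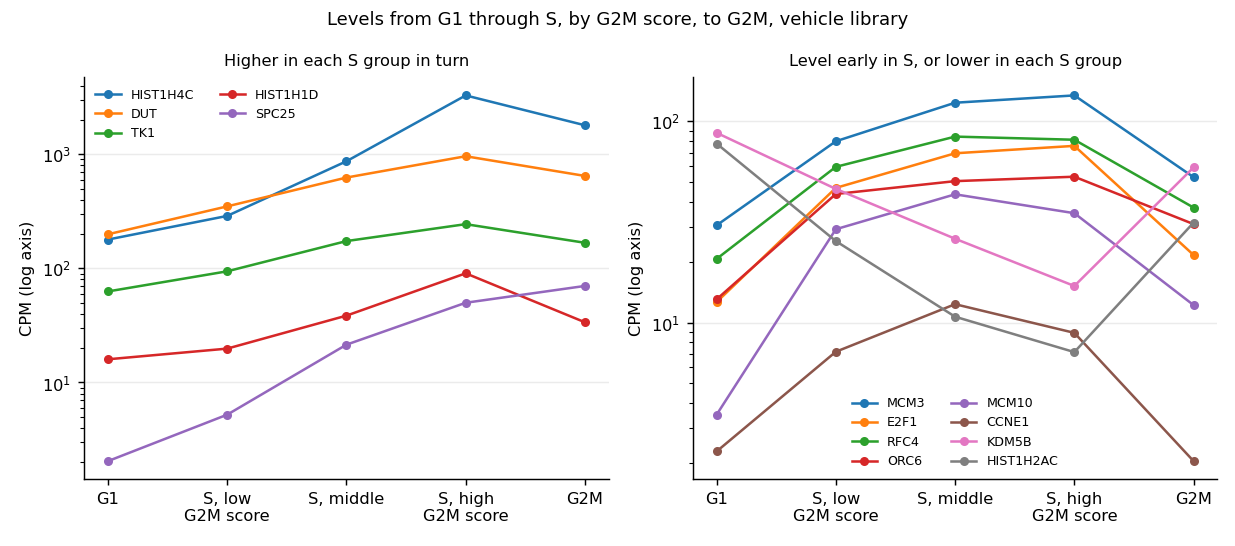
Summed CPM on a log axis in G1 cells, in S cells of low, middle and high G2M score and in G2M cells of the vehicle library. HIST1H4C is at 3275 CPM in the high S group, MCM10 is at 29.1 CPM in the low S group, and KDM5B is lowest, at 15.2 CPM, in the high S group. The groups are set by score and are not time points.

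The authors' clusters divide the S cells unevenly. Cluster 2 held 540 S cells (42.4% of them), 200 G2M cells and no vehicle G1 cell, and the other S cells were spread over clusters 0, 1, 3, 4 and 5. HIST1H4C was at 2986 CPM in the S cells of cluster 2 and at 244 to 435 CPM in those of the other clusters, and RRM2 at 334 CPM and at 57.6 to 110 CPM. Outside cluster 2 the log2 ratio of HIST1H4C over G1 was 0.92, in place of 3.09, while those of MCM10 (3.22), E2F1 (2.04), E2F2 (2.59), HIST1H2AC (-1.88) and KDM5B (-1.16) kept their direction. The median of the licensing list was 1.41 there, and that of the histone list 0.27. Within cluster 1, with 222 S and 311 G1 cells, MCM10 had a log2 ratio of 3.50, and within cluster 4, with 202 S and 194 G1 cells, one of 1.82.

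Cells just inside the limit of the call were close to those just outside it. The 72 S cells with a S score under 0.05 had MCM10 at 16.0 CPM, and the 92 G1 cells with a S score above -0.05 had it at 16.0 CPM. RRM2 was at 31.3 CPM in these S cells and 25.4 CPM in these G1 cells, and HIST1H4C at 266 and 209 CPM. The 1201 S cells further inside had HIST1H4C at 1593 CPM and the 940 G1 cells further outside at 176 CPM.

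In the cytokine library 967 of 8861 measured genes outside the score were at least 1.5-fold higher in S than in G1 cells (10.9%) and 321 lower (3.62%). The phases there come from the same score genes. Genes that vary with the score are touched by that choice in both libraries, so agreement is partly built in. Of the 677 genes higher in vehicle S cells 587 were measured there too, 574 had a ratio of the same sign, 489 passed the same call and 0 the opposite one. Of the 151 genes lower in vehicle S cells 117 were measured there, 104 with the same sign and 56 with the same call. MCM10 was at 28.1 CPM in cytokine-treated S cells and 0.260 CPM in cytokine-treated G1 cells, and E2F1 at 95.5 and 3.51 CPM. HIST1H4C was at 486 CPM in cytokine-treated S and 53.7 CPM in cytokine-treated G1 cells, a log2 ratio of 3.18 next to 3.09 in the vehicle library, although both levels were lower there. KDM5B was at 35.1 CPM in cytokine-treated S and 103 CPM in cytokine-treated G1 cells.

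Immune markers were near 0 in S cells, and 1 stromal marker was measured. Of 15 immune markers 5 were in the matrix, none was measured, and their summed level was 0.841 CPM in S and 0.898 CPM in G1 cells. Of 16 stromal markers 5 were in the matrix and only COL1A1 was measured, at 18.9 CPM in S and 21.2 CPM in G1 cells.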

How the data were processed

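MDA-MB-453 cells given water or IL1β and TNFα gave 1 library each with a 10x Genomics 3′ v2 kit. The authors deposited whole-number UMI counts per gene and cell, made with Cell Ranger 3.1.0 on GRCh38, for cells they had filtered in Seurat 4.0.4. By the study's methods, the cells kept had fewer than 50000 UMIs, between 3000 and 5000 genes and a mitochondrial share under 15%, and each cell in the matrix lay inside these limits. The deposited cell table also gave, per cell, S and G2M score values, a phase, the percent of mitochondrial UMIs and a cluster; how clusters were made is not given in the sources used here. Counts per cell and gene numbers equalled the cell table in 5985 of 5985 cells.

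UMIs were summed per phase and divided by the phase total to give CPM. The log2 ratio has an exact 95% conditional binomial interval, a CPM an exact Poisson interval and a share of cells an exact Clopper-Pearson interval. Intervals cover counting error only and leave out the spread between cells and cultures. At this depth 3 UMIs equal 0.110 CPM in S and 0.150 CPM in G1 cells. Genes at CPM 5 or more in S or G1 cells counted as measured, and a call needed 1.5-fold and an interval clear of 0. A gene could thus count as measured through a single phase, and folds over a level under that limit rest on fewer UMIs. With 1 library per condition no p-value was computed. The genes read by the scores were taken as the S and G2M lists distributed with Seurat, in both of its releases. Named genes were RRM2, PCNA and MCM6, up to 8 members of each list by size of ratio, and, outside all lists, the 15 highest and 10 lowest ratios at CPM 20 or more; others named for contrast or in small counts were chosen after their values were seen. The members and lists were chosen with earlier results of these data known. No doublet caller was run on this single cell line, and free RNA in droplets was not estimated. Promoters came from RefSeq (GRCh38.p14), and 7517 of 9094 measured genes matched one; gene positions came from GENCODE on GRCh38.

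The results were recomputed with TMM (edgeR 4.0.16) or DESeq2 1.42.0 scaling, with totals that left out ribosomal and mitochondrial genes, with per-cell CPM averaged over cells, and with thinning, phases called again with scanpy 1.11.5, cells away from the score limit, a mitochondrial limit of 10%, CPM limits of 1, 20 and none, and 2-fold; clusters and a limit of 4500 genes were added after the data were seen. The calls were also run on simulated counts with known changes, drawn with counting error only. That run had no spread between cells and no phase call, so it cannot show how calls behave where these matter. Some listed genes are not reported here.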

Additional observations from a re-analysis of the deposited data

Results flagged for a closer look

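TROAP was the only gene called lower in S than in G1 cells of the vehicle library (log2 ratio -1.03, -1.19 to -0.88) and higher in the cytokine library (1.45, 0.98 to 1.91). It was at 21.1 CPM in S and 43.2 CPM in G1 cells of the vehicle library, and at 7.35 CPM in S and 2.68 CPM in G1 cells of the cytokine library. The difference between the libraries was not tested, since each was 1 culture.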

How the results depend on the processing

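The counts of 677 genes higher and 151 lower in S cells stayed within 1.5 times under TMM, DESeq2 and ribosome-free scaling, per-cell means, thinning, phases called again, cells away from the score limit, the mitochondrial limit, clusters 1 and 4 alone, S cells outside cluster 2 and at most 4500 genes per cell. The CPM limit for measured genes moved them, since a lower limit lets in more genes and a higher limit fewer. The balance of higher to lower genes also changed with that limit. At CPM 1, 415 were lower; with no minimum, 1020 were higher and 541 lower; at CPM 20, 319 were higher and 46 lower. At 2-fold, 269 were higher and 33 lower. Outside cluster 2, 452 were higher, 405 of them among the 677. Of 235 gene ratios compared, many left their main counting interval when the cells were restricted. These were 166 within cluster 4, 140 outside cluster 2, 126 within cluster 1 and 61 with at most 4500 genes per cell. Among called genes, TDO2 reversed direction within cluster 1 (0.73) and S100P within cluster 4 (0.31), and the cause was not tested. Cluster 2 alone gave no value, because it held no vehicle G1 cell. Phases called again on thinned counts kept 1136 of 1245 S cells in S. No paired analysis was possible because each condition was 1 library.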
